A study of Homo sapiens with 8 samples.

Results

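The genes described here were the replication-dependent histone genes of the clusters on chromosomes 6 and 1. They were taken as every protein-coding gene of GENCODE release 44, mapped to GRCh37, whose symbol begins with H1-, H2AC, H2BC, H3C or H4C and which lies on chromosome 6 between 25.9 and 28 Mb or on chromosome 1 between 149.7 and 150 Mb. This gave 59 of 20162 protein-coding genes, 49 on chromosome 6 and 10 on chromosome 1, made up of 6 H1, 14 H2A, 14 H2B, 13 H3 and 12 H4 genes. Each had 1 exon in its canonical transcript, and their lengths ran from 386 to 2224 bp with a median of 487 bp. RNA polymerase II (RNAPII) had been mapped by ChIP-seq in MDA-MB-453, a human breast cancer cell line. Cells received vehicle or 600 nM CDDD11-8 (D11-8 in the labels), an inhibitor of the kinase CDK9, for 4 h, in 2 replicates each from consecutive passages. All 4 libraries came from this 1 cell line, so nothing here speaks for other cells, and replicate spread is the spread between passages. Pairs of values are given below in replicate order, vehicle first.

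Replication-dependent histone genes supply the core and linker histones that package newly copied DNA, and they are transcribed mostly in S phase from clusters of short genes without introns. NPAT, a substrate of cyclin E and CDK2, gathers at these clusters in the histone locus body and drives their transcription. Their mRNAs carry no poly(A) tail. Instead they end just after a conserved stem-loop, which SLBP binds and which is cut with the help of the U7 small nuclear ribonucleoprotein. CDK9 is the kinase of P-TEFb, which releases RNAPII paused near promoters, and it has also been linked to the 3′ processing of histone mRNAs.

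The deposited lists gave, for each library on its own, the summits of RNAPII enrichment that MACS2 called against input. They held 178966 and 135500 summits in 78306 and 57493 peaks for vehicle, and 80894 and 64617 summits in 25897 and 21842 peaks for CDDD11-8. Peaks covered 97.9 ± 15 Mb with vehicle and 61.2 ± 9.28 Mb with CDDD11-8 (SD, n = 2 each, exact two-sided permutation p = 0.333). A peak touched between 57.0% and 59.3% of protein-coding genes in every list. Promoters of 8 markers of luminal breast cells (FOXA1, SPDEF, ERBB2, TRPS1, GATA3, KRT8, KRT18 and XBP1) lay under a peak in all 4 lists. None of 8 further genes did so, and 7 of the 8 had no promoter peak in any list. Of these 8, KRT5, KRT14, TP63, VIM, PTPRC and COL1A1 mark other cell types. ESR1 and PGR are hormone receptor genes of luminal cells, so not every luminal gene had a promoter peak. The lists hold no read counts, so the depth is unknown, and with 2 libraries a group the smallest p an exact test can give is 0.333. No comparison below could therefore pass 0.05. In bulk chromatin, fewer cells in S phase and less RNAPII per cell cannot be told apart.

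All 59 genes held the letters of a histone stem-loop, 2 arms of 6 bases around a loop of 4 bases, between 23 and 68 bases after the stop codon (median 36). These sequences are shown because they mark where a histone mRNA ends, close to the annotated gene end from which RNAPII past the end is counted below. That end lay a median of 5 bases beyond the stem-loop, but 1729 bases beyond it at H2BC21, the longest of the genes. The search covered 200 bases after the stop codon on the coding strand, and 57 of the 59 had fully complementary arms. There were 10 kinds of sequence. The commonest was carried by 34 genes, including H1-2, H2AC17, H2BC17 and H3C7. Genes of the H4 family had their own arms, in the form of H4C5 (7 genes) or of H4C12 (4 genes), while H4C13 had these arms around another loop. H1-1 and H1-6, which had little or no RNAPII, shared their form with 6 other genes. Arms are in capitals and the loop in lower case, read 5′ to 3′ from GRCh37.
H1-2 and 33 others: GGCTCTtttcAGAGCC
H1-1, H1-6 and 6 others: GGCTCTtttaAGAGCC
H4C5 and 6 others: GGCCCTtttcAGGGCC
H4C12 and 3 others: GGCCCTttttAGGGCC
H2AC15: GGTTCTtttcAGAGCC

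The promoters carried the letters known from histone genes far more often than promoters at large. Within 250 bases before the start site, on either strand, TATAAA stood in 40 of 59 histone promoters (67.8%) against 9.38% of all protein-coding promoters. CCAAT stood in 51 (86.4%) against 34.2%, and the octamer ATTTGCAT in 22 (37.3%) against 1.53%. The octamer was confined in this window to H2A and H2B promoters, 11 of 14 in each family. CCAAT was in every H1, H2A, H2B and H3 promoter but in only 4 of 12 H4 promoters. A TATAAA on the coding strand between 45 and 20 bases before the start site was found in 34 of the 59 genes and in 3.85% of all promoters. The 3 motifs do not overlap one another in letters, and because head-to-head neighbours share their upstream sequence, 1 match can count for 2 genes. A few promoters are printed to show these letters, in capitals, beside the RNAPII values that follow: the 239 bases between the start sites of H2AC17 and H2BC17, which ranked high in all 4 lists, 200 bases before the start of H1-2, H4C5 and H4C11, which also ranked high, and 200 bases before H1-1 and H1-6. H1-1 had both TATAAA and CCAAT upstream, so these letters alone did not separate genes with RNAPII from genes without.
H2AC17/H2BC17, chr6:27860964-27861202, plus strand: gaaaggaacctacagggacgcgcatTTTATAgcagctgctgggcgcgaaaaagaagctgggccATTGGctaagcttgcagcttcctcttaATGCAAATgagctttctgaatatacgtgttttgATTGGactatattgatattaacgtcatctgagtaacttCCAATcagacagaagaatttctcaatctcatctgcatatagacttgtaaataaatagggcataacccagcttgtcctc
H1-2, chr6:26056699-26056898, minus strand: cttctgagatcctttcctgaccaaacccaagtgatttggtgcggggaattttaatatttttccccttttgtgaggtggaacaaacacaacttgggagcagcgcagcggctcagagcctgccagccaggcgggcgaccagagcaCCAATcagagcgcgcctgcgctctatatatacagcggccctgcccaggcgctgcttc
H4C5, chr6:26204638-26204837, plus strand: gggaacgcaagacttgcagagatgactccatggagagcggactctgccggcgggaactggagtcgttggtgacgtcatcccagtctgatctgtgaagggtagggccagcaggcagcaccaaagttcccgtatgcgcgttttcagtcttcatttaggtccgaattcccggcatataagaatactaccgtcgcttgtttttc
H4C11, chr6:27791670-27791869, plus strand: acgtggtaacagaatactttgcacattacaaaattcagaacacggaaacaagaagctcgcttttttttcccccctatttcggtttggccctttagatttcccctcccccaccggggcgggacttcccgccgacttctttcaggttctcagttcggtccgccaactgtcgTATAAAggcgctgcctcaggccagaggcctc
H1-1, chr6:26018016-26018215, minus strand: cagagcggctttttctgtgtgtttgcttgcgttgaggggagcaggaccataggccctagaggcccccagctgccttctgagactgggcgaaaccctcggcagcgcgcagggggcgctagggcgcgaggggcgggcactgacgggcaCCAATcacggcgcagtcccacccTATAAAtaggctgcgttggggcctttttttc
H1-6, chr6:26108364-26108563, minus strand: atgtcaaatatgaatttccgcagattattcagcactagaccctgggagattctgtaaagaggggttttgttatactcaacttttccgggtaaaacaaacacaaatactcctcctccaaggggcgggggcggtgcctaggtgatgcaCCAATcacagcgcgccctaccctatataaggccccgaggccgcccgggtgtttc

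RNAPII covered nearly every cluster histone gene from end to end, with vehicle and with CDDD11-8 alike. A peak touched 58 and 57 of the 59 genes in the vehicle lists and 57 in each CDDD11-8 list (exact two-sided permutation p = 1.0). The same 57 genes lay wholly inside a peak in all 4 lists. Mean coverage of the gene over the 59 was 97% and 96.6% with vehicle and 96.6% in both CDDD11-8 lists. Among the other 10889 protein-coding genes with a peak in every list, mean coverage of the gene was 34.0% and 30.3% with vehicle and 26.9% and 22.7% with CDDD11-8. Other single-exon genes are the closer comparison, because a short gene is easily spanned by 1 peak. Their coverage was 76.2% and 80.7% with vehicle and 84.6% and 81.6% with CDDD11-8 (n = 204).

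The 2 exceptions were both linker histone genes. H1-1 (chr6:26017260-26018015) was not touched by a peak in any list. In the first CDDD11-8 list a summit of fold enrichment 3.29 lay 232 bp before its start site, at the edge of the peak that ran over H3C1, H4C1, H3C2 and H2AC4. H1-6 (chr6:26107640-26108363), the testis-type H1, had 23.2% of its length under a peak of 348 bp in the first vehicle list and no peak in the other 3. Its summit there had a fold enrichment of 2.82. H4C7 (chr6:26246839-26247224) was the weakest of the fully covered genes. Its strongest summit had fold enrichments of 2.36 and 3.45 with vehicle and 3.79 and 4.15 with CDDD11-8, and it ranked between the percentiles 2.72 and 7.66 in the 4 lists. It lay at the edge of a broad peak over H3C7 and H2BC9 in 3 of the 4 lists.

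Fold enrichment, the ratio of RNAPII signal at a summit to the local background, was ranked within each list, since lists were scaled one by one and their folds are not on a common scale. The rank of a gene is the percentile of its strongest summit, from 300 bp before its start to 300 bp past its end, among the strongest summits of all protein-coding genes that had one. The median rank of the histone genes was 99.4 and 99.3 with vehicle and 84.5 and 96.2 with CDDD11-8. The group means were 99.4 ± 0.0336 and 90.3 ± 8.29 (SD, n = 2, exact two-sided permutation p = 0.333, the smallest possible). Both CDDD11-8 lists were lower than both vehicle lists, and they differed from each other by more than the vehicle lists did. With vehicle, 52 and 53 of the genes stood at or above the 95th percentile. With CDDD11-8, 12 and 31 did.

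Of the 55 histone genes with a summit in all 4 lists, 37 ranked lower in both CDDD11-8 lists than in both vehicle lists and 0 ranked higher. Among all 10789 protein-coding genes with a summit in all 4 lists, 22.8% ranked lower and 23.3% higher. Genes that start at the top of a list can hardly rise in rank, so the fairer background is the genes with a mean vehicle rank of at least 95. There, 64.2% of 316 genes ranked lower and 5.06% higher, with 49 histone genes counted among them. Of these 49, 36 (73.5%) ranked lower and 0 higher. The median rank of the other 267 genes of that kind went from 97.9 ± 0.15 to 88.9 ± 1.24 (SD, n = 2). The difference in rank was thus of about the same size as at other genes that ranked high with vehicle, and nothing particular to histone genes was shown by it.

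The median fold enrichment itself was not lower with CDDD11-8, though folds of different lists are not on a common scale. Over the histone genes it was 25.2 and 27.0 with vehicle and 37.5 and 33.3 with CDDD11-8. Single genes went either way, with lower folds in both CDDD11-8 lists at H2AC8 and higher folds in both at H2AC17. The median over all other genes went from 5.84 and 7.56 to 22.8 and 15.5. Within each list, the histone median was therefore 4.30 and 3.58 times the median of other genes with vehicle, and 1.64 and 2.14 times with CDDD11-8. This ratio averaged 3.94 ± 0.516 and 1.89 ± 0.356 (SD, n = 2, exact two-sided permutation p = 0.333). It was not taken for other genes that ranked high with vehicle, so nothing particular to histone genes was shown by it. Whether scaling or depth had a part in the lists' different folds was not tested.

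**Figure D1:**
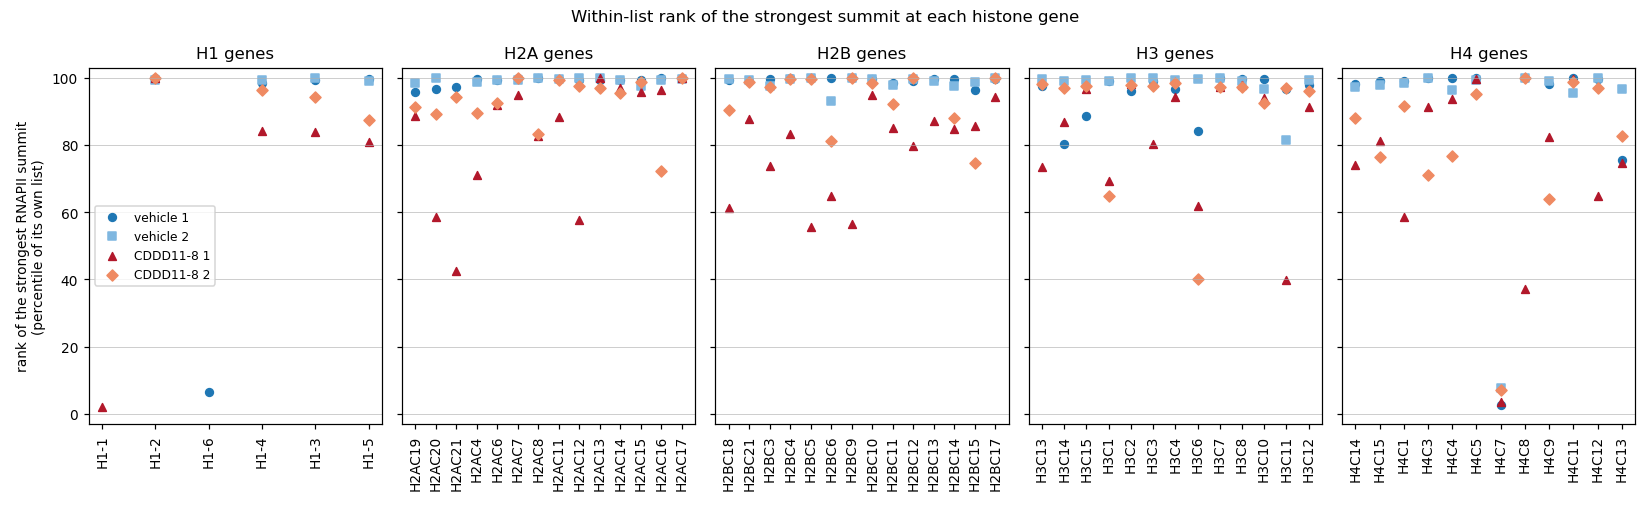
Rank of the strongest summit (percentile of its own list, vertical axis) for each of the 59 histone genes, by family, with 1 point per library. Most vehicle points lie near 100, the lowest being those of H4C7 and H1-6 and, in 1 vehicle list each, H4C13 (75.6), H3C14 (80.2), H3C11 (81.5) and H3C6 (84.3), and points of the first CDDD11-8 library (dark red triangles) spread lowest, with a median of 84.5.

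The families lay close together with vehicle. Averaged over both vehicle lists, the median rank was 99.3 for H1, 99.4 for H2A, 99.5 for H2B, 98.4 for H3 and 98.8 for H4. With CDDD11-8 it was 89.5, 92.5, 91.3, 94.2 and 81.6. H4 genes had the lowest median in both CDDD11-8 lists, 77.9 and 85.4, beside 83.7 and 95.3 for H1, 90.2 and 94.8 for H2A, 84.1 and 98.5 for H2B and 91.3 and 97.1 for H3. The order of the other families differed between the 2 lists, and no difference between families was tested. Ranks were lower in both CDDD11-8 lists than in both vehicle lists at 3 of 4 H1 genes ranked in all lists, 9 of 13 H2A genes, 10 of 13 H2B genes, 7 of 13 H3 genes and 8 of 12 H4 genes, beside the background shares given above. The difference between group means ran from -41.0 percentiles at H3C6 to 3.12 at H3C15, a gene whose sequence has exact copies elsewhere. The lowest of the 4 ranks was in the first CDDD11-8 list at 34 of the 55 genes, in the second at 14, in the first vehicle list at 4 and in the second at 3. On chromosome 1, 6 of 9 ranked genes were lower, and on chromosome 6, 31 of 46.

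H1-2 and H1-4 were the highest-ranking linker histone genes, whose products bind DNA between nucleosomes. At H1-2 the fold enrichment was 50.5 and 27.9 with vehicle and 69.3 and 49.8 with CDDD11-8, with ranks between 99.4 and 99.97 in the 4 lists. H1-4 had folds of 19.9 and 25.7 with vehicle and 37.2 and 33.5 with CDDD11-8, and its ranks of 98.5 and 99.2 went to 84.1 and 96.3. Thus H1-2 overlapped between the groups and H1-4 did not.

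H2AC17 and H2AC13 led the genes of H2A, which pairs with H2B in the nucleosome. H2AC17 had folds of 33.2 and 32.5 with vehicle and 68.0 and 47.1 with CDDD11-8, and all 4 ranks lay between 99.7 and 99.8. H2AC13 had folds of 26.2 and 35.2 with vehicle and 74.5 and 34.3 with CDDD11-8, with ranks of 99.4 and 99.9 beside 99.97 and 97. Neither separated the groups in rank, whereas the folds of H2AC17 were higher in both CDDD11-8 lists.

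Among the H2B genes, H2BC17 and H2BC10 ranked highest over the 4 lists. H2BC17 had folds of 29.5 and 37.8 with vehicle and 45.7 and 47.1 with CDDD11-8, and ranks of 99.6 and 99.9 beside 94.4 and 99.8. In the second CDDD11-8 list its strongest summit was the one inside H2AC17, on the other side of the promoter printed above. The summit inside H2BC17 itself had a fold of 25.4 there, so the place of H2BC17 rests in part on its neighbour. H2BC10 had folds of 29.5 and 32.5 beside 46.7 and 37.6, and ranks of 99.6 and 99.7 beside 94.9 and 98.5, with no overlap of the groups.

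H3C7 and H3C8 led the H3 genes and H4C5 and H4C11 the H4 genes, whose products form the core tetramer of the nucleosome. H3C7 had folds of 32.3 and 33.7 with vehicle and 50.7 and 34.8 with CDDD11-8, and ranks of 99.8 and 99.8 beside 97.4 and 97.2. H3C8 had folds of 30.0 and 24.4 beside 51.5 and 34.5, and ranks of 99.7 and 98.9 beside 97.7 and 97.1. The ranks of both H3 genes were lower in each CDDD11-8 list than in each vehicle list, although their folds were higher. H4C5 had folds of 52.7 and 26.1 beside 61.1 and 32.2, and ranks of 99.98 and 99.2 beside 99.5 and 95.3. H4C11 had folds of 32.9 and 17.2 beside 64.3 and 38.3, and ranks of 99.8 and 95.4 beside 99.7 and 98.7. The groups overlapped in rank at both H4 genes.

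Several of the strongest vehicle summits ranked low in 1 CDDD11-8 list alone. These genes were picked after their values were seen. H4C8 had ranks of 99.95 and 99.96 with vehicle and 37 and 99.8 with CDDD11-8. H2BC5 had 99.9 and 99.996 beside 55.7 and 99.7, and H2BC9 had 99.99 and 99.9 beside 56.4 and 99.9. In each case the low value was in the first CDDD11-8 library. The low rank was one of fold over local background. The deposited pileup, the signal itself, was closer between the 2 CDDD11-8 lists, which were scaled one by one. It was 267 and 285 at H4C8, 274 and 279 at H2BC5, and 252 and 263 at H2BC9. H3C6 was low in both, with ranks of 84.3 and 99.7 beside 61.8 and 40.1. H2AC21 in the second vehicle list and H2BC13 in the second CDDD11-8 list had no summit within their window and so no rank, although a peak covered both genes.

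The strongest summit lay inside the gene, and not at its start. Its median distance from the start site was 180.5 and 184.5 bp with vehicle and 173 and 187 bp with CDDD11-8 (means 182.5 ± 2.83 and 180 ± 9.90 bp, SD, n = 2, exact two-sided permutation p = 1.0). It fell between the start and the end of the gene at 54 of 58 and 51 of 56 genes with vehicle, and at 55 of 58 and 52 of 56 with CDDD11-8. To compare with genes of any length, the strongest summit was also sought from 300 bp before to 800 bp after each start site. There the median was 178.5 and 183 bp with vehicle and 176.5 and 187 bp with CDDD11-8 for histone genes, against 42, 46, 54 and 58 bp for other genes in the same order. In the vehicle lists 6.90% and 19.6% of histone genes had this summit before 100 bp, against 66.0% and 62.6% of other genes. With CDDD11-8 the shares were 8.62% and 12.5% against 65.0% and 62.6%. The position thus differed from that of other genes in each list, in the same direction, and differed between treatments by less than the spread of the CDDD11-8 lists. By family, the median averaged over the lists of a group was 247 bp with vehicle and 220.5 bp with CDDD11-8 for H2B. It was 181 and 177 bp for H2A, 177.5 and 180.0 bp for H3, and 145 and 165 bp for H4. For H1 it was 188.5 and 302 bp, but over only 4 or 5 genes a list. The H1 medians were 128 and 249 bp with vehicle and 92 and 512.5 bp with CDDD11-8, so the groups overlapped.

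**Figure D2:**
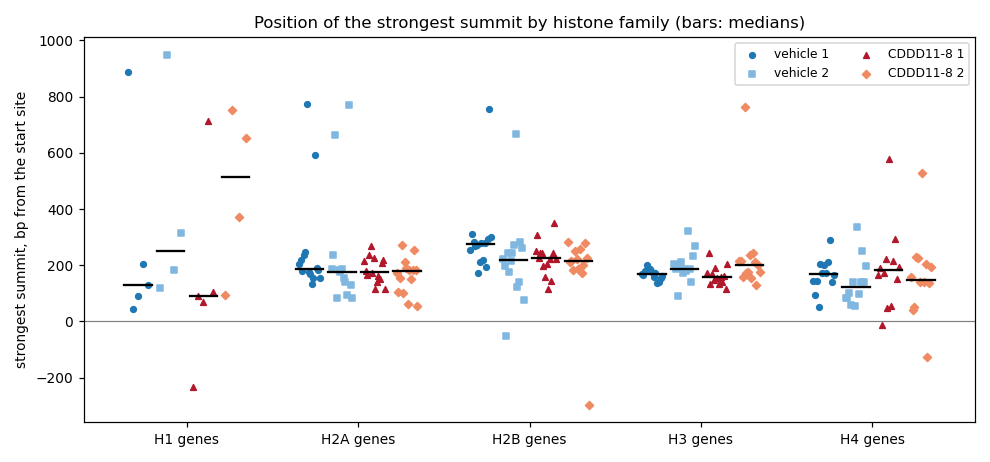
Distance of the strongest summit from the start site (bp, vertical axis) for each histone gene with a summit, by family and library. Black bars are medians per family and library, and most points of every library lie between the start site and 300 bp into the gene.

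In all, 9 neighbouring pairs were arranged head to head with start sites less than 1500 bp apart, 8 of them an H2A with an H2B gene and 1 H3C7 with H2BC9. The sequence between their start sites ran from 193 to 978 bp with a median of 244 bp. Each of the 9 pairs lay in 1 peak in all 4 lists. Both genes had a summit of their own in 9, 9, 9 and 8 pairs, in list order, while the stretch between the start sites held a summit in 1 pair in the first vehicle list and in 0 in the other lists. A pair was thus nearly always seen as 2 summits, 1 inside each gene, under a single peak.

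RNAPII peaks ran on far past the ends of the histone genes, and the group means differed by 1.49 percentage points or less between treatments. Coverage of the 1 kb past the end averaged 94.9% and 95.4% over the 59 genes with vehicle and 96.9% and 96.4% with CDDD11-8 (means 95.2 ± 0.342% and 96.7 ± 0.398%, SD, n = 2, exact two-sided permutation p = 0.333). For 3 kb it was 94.5% and 93.6% with vehicle and 95.4% and 94.6% with CDDD11-8 (94.0 ± 0.662% and 95 ± 0.527%, exact p = 0.333). For 5 kb it was 89.4% and 87.4% beside 90.2% and 87.7% (88.4 ± 1.42% and 88.9 ± 1.74%, exact p = 0.667). At 46 genes the 3 kb past the end were wholly covered in all 4 lists, so that most of the genes had no room to rise.

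Other genes had, on average, less coverage past their ends in both CDDD11-8 lists than in both vehicle lists. Among the 10889 other protein-coding genes with a peak in all 4 lists, the 3 kb past the end were covered to 48.0% and 43.4% with vehicle and to 24.5% and 19.5% with CDDD11-8. Among the 204 other single-exon genes of that kind it was 49.4% and 52.0% beside 45.5% and 38.2%. The lead of the 57 histone genes with a peak in all 4 lists over all such genes was 48.4 and 52.2 percentage points with vehicle and 72.9 and 77.1 with CDDD11-8. Over single-exon genes the lead was 47.0 and 43.7 points with vehicle and 51.9 and 58.4 with CDDD11-8. Both leads were larger in each CDDD11-8 list than in each vehicle list (exact two-sided permutation p = 0.333 for each, the smallest possible). Other genes with a mean vehicle rank of at least 95 were nearer to the histone genes with vehicle. Their 3 kb past the end were covered to 82.9% and 80.4% with vehicle and to 58.9% and 53.7% with CDDD11-8 (n = 267). High coverage past the end with vehicle was thus not particular to histone genes.

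Gene by gene, 3 of the 59 histone genes had more of the 3 kb past the end covered in both CDDD11-8 lists than in both vehicle lists, and 1 had less. Over all protein-coding genes, 2.83% were higher and 23.8% lower. Over the 10946 with a peak in all 4 lists, 3.4% were higher and 40.6% lower. For the 5 kb past the end, 7 of the 59 were higher and 6 lower, beside 4.26% and 25.9% of all protein-coding genes and 5.25% and 43.7% of those with a peak in all 4 lists. The share of histone genes with lower coverage was thus under that of protein-coding genes at large at both distances. Against the 1106 other single-exon genes this held at 3 kb, with 1.69% of histone genes beside 6.42%, but not at 5 kb, with 10.2% beside 7.32%. Among single-exon genes with a peak in all 4 lists, 25.5% had lower coverage at 3 kb and 28.9% at 5 kb (n = 204), beside 1.75% and 10.5% of the 57 histone genes of that kind. With libraries paired by replicate number, 2 histone genes in place of 1 had lower coverage at 3 kb.

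The genes that did separate were few. At H2BC3, covered to 27.8% and 37.9% of the 3 kb past its end with vehicle, the values with CDDD11-8 were 54.0% and 73.0%. H3C12 had 93.9% and 74.6% with vehicle and 100% and 94.7% with CDDD11-8. H2BC15 had 97.1% and 97.5% beside 100% and 97.7%, a difference of 1.6 points between the means. H2BC18 on chromosome 1 was the gene with less, 93.0% and 89.8% with vehicle and 84.8% and 89.5% with CDDD11-8. H1-6 lacked a peak in 3 lists, but 66.7% to 78.0% of its 3 kb past the end was covered, in the direction of H4C3.

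The 5 kb window separated more genes, which are named because they are few. Coverage was higher in both CDDD11-8 lists at H2BC3, H2AC6, H2BC5, H3C7, H2BC14, H2BC15 and H1-5, and lower at H2BC18, H3C13, H3C3, H1-2, H3C6 and H1-3. H2BC3 had 26.8% and 22.7% with vehicle and 52.8% and 65.3% with CDDD11-8. H1-5 had 86.5% and 70.6% beside 96.4% and 91.7%. In the other direction the widest gaps were at the neighbours H2BC18 and H3C13 on chromosome 1. H2BC18 had 79.5% and 75.9% with vehicle and 50.9% and 53.7% with CDDD11-8, and H3C13 had 95.8% and 91.6% beside 77.8% and 80.6%. H1-2 had 100% in both vehicle lists and 91.3% and 93.7% with CDDD11-8.

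Since neighbours lie close, coverage was also taken without bases inside other protein-coding genes or less than 300 bp before their start, a choice made after seeing the data. The 5 kb past the end were then covered to 89.3% and 87.2% with vehicle and to 90.2% and 87.7% with CDDD11-8. At the 34 genes under a peak at their end in all 4 lists that had no protein-coding gene in the 5 kb past it, coverage was 87.8% and 85.9% beside 89.1% and 85.6%. Other genes were taken with a peak in all 4 lists and no protein-coding gene in that 5 kb, but without the need for a peak at their end. They had 33.0% and 26.7% with vehicle and 10.6% and 7.62% with CDDD11-8 (n = 5814). Other single-exon genes of that kind had 32.6% and 32.1% beside 22.9% and 17.2% (n = 117). The choice was thus looser than for the 34 histone genes. From the gene end to the edge of the peak, the 34 genes had a median of 5781.5 and 5058 bp with vehicle and 11159.5 and 4700.5 bp with CDDD11-8. This distance did not separate the groups.

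Neighbouring histone genes mostly shared a peak. Of the 59 genes, 54 and 52 lay in a peak with at least 1 other of them in the vehicle lists and 54 and 52 in the CDDD11-8 lists (exact two-sided permutation p = 1.0). The genes were held by 20 and 22 peaks with vehicle and 16 and 18 with CDDD11-8. The median width of these peaks was 11700.5 and 10876.5 bp with vehicle and 13828 and 10450 bp with CDDD11-8 (means 11288.5 ± 583 and 12139 ± 2389 bp, SD, n = 2, exact p = 1.0), against 612 and 660 bp and 1169 and 1356 bp for all peaks of each list. The 2 groups overlapped in width at the histone genes, but this depended on how peaks were joined. With peaks within 1 kb merged, the median widths were 15614 and 16968.5 bp with vehicle and 19242 and 20607.5 bp with CDDD11-8, which do not overlap (exact p = 0.333).

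The peaks that held the most genes were found with CDDD11-8. In the first CDDD11-8 list a peak of 83.8 kb (chr6:26146130-26229880), the 2nd widest of that list, held 9 genes from H1-4 to H3C6 with 93 summits. In the second CDDD11-8 list and in both vehicle lists this stretch was broken into several peaks. A peak from H2BC13 to H2BC15 held 9 genes in both CDDD11-8 lists, over 37.6 kb (chr6:27772643-27810282) and 36.8 kb (chr6:27773066-27809819). In the vehicle lists the same genes lay in 2 peaks, 1 with 5 genes (H2BC13 to H2BC14) and 1 with 4 (H4C11 to H2BC15), which were 14.9 and 20.4 kb wide in the first list and 15.5 and 20.6 kb in the second. The most genes in 1 vehicle peak was 5.

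Other blocks held the same genes in all 4 lists. The chromosome 1 block from H4C14 to H4C15, whose 5 genes have copied sequence as described below, was 36.8 and 35.3 kb wide with vehicle and 37.3 and 35.9 kb with CDDD11-8, with 49, 41, 42 and 37 summits in list order. The block from H2BC11 to H2AC12, also of 5 genes, was 21.6 and 20.5 kb beside 21.7 and 20.3 kb. Neither of these separated the groups in width. The block from H3C1 to H2AC4 was wider in both CDDD11-8 lists, 18.8 and 17.3 kb beside 19.2 and 20.1 kb, and so was that from H2AC16 to H4C13, 12.2 and 12.1 kb beside 13.3 and 13 kb. H1-2 and H4C3 lay in a peak of their own in every list. The H1-2 peak was narrower in both CDDD11-8 lists, 10.3 and 9.19 kb with vehicle and 7.78 and 8.28 kb with CDDD11-8, whereas the H4C3 peak, 5.39 and 4.55 kb beside 5.25 and 5.53 kb, overlapped between the groups.

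Counted as 57 pairs of neighbours on the same chromosome, 38 and 35 pairs lay in 1 peak with vehicle and 41 and 39 with CDDD11-8, and 34 did so in all 4 lists. The groups separated at 2 pairs. H2BC14 and H4C11, 8602 bp apart, were joined in both CDDD11-8 lists and in neither vehicle list, and H3C6 and H1-3, 8595 bp apart, the reverse. The joining of peaks was thus not in 1 direction at every pair.

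**Figure D3:**
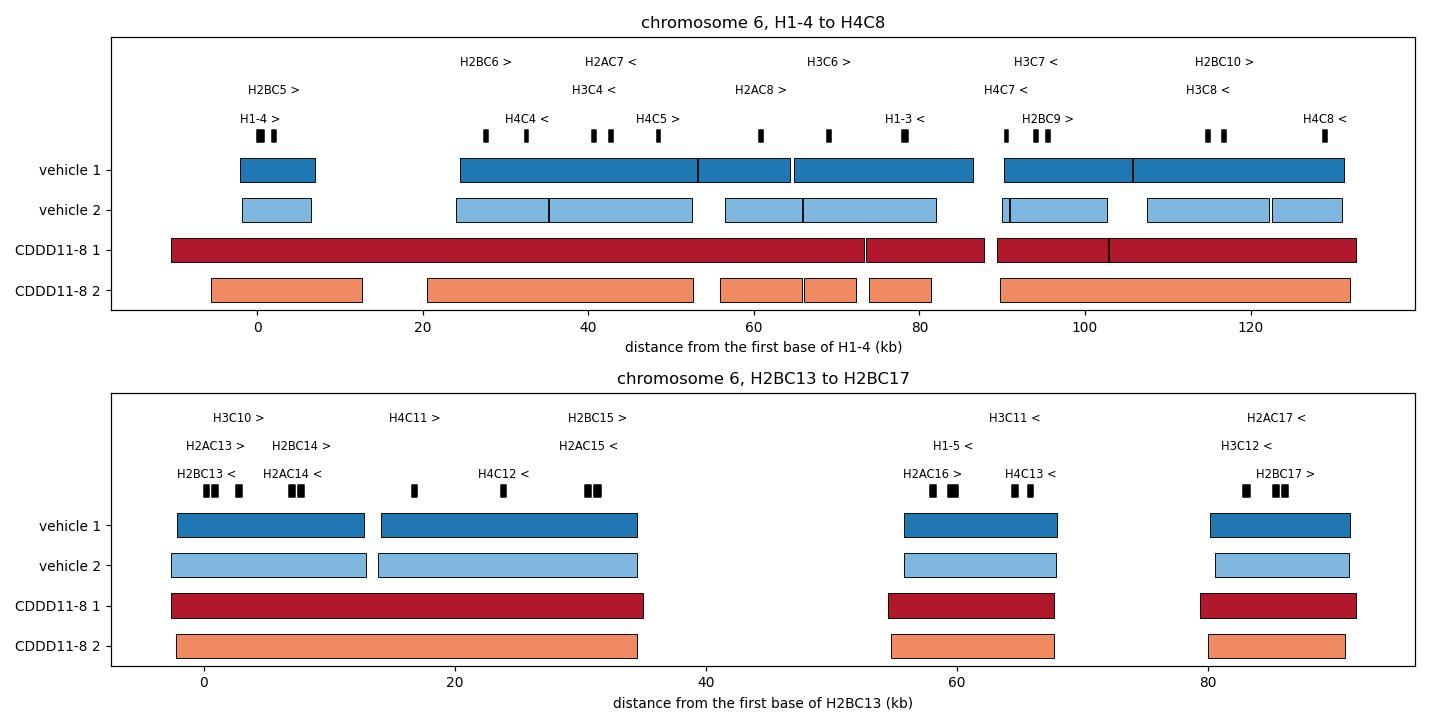
RNAPII peaks that hold a histone gene (bars, 1 row per library) along the clusters from H1-4 to H4C8 and from H2BC13 to H2BC17, in kb from the first base of the first gene named, with black boxes for genes and < or > signs for their strand. The first CDDD11-8 library has 1 peak of 83.8 kb over 9 genes, and both CDDD11-8 libraries have 1 peak where the vehicle libraries have 2 between H2BC13 and H2BC15.

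Some of these genes cannot be told apart by their sequence. A window of 150 bases, the length of a read, had an exact copy elsewhere in GRCh37 at more than 50% of positions in 9 of the 59 genes, and at some positions in 11. The copied share was 100% for H4C14, H4C15, H3C14, H3C15 and H2AC19, which lie in mirrored order on chromosome 1, 88.75% for H4C11, 89.5% for H4C12, 52.9% for H2AC13 and 56.0% for H2AC14. How the authors placed reads that match in several places was not given in the sources used here, so values at these 9 genes are uncertain. Over the 50 genes without them, the difference in median rank (CDDD11-8 minus vehicle) was -9.54 percentiles, beside -9.04 over all 59 (exact two-sided permutation p = 0.333 for both). HIST1H4B and HIST2H2AA3, 2 cluster histone genes that the annotation lists under older symbols and which the rule therefore left out, had ranks of 99.9 and 98.2 and of 94.9 and 99.8 with vehicle, and of 96.2 and 98.7 and of 95.7 and 94.5 with CDDD11-8. Both had their 3 kb past the end wholly covered in all 4 lists.

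Histone genes also lie outside these clusters, many of them making replacement histones, and 15 of 17 such genes listed were found in the annotation. The list also holds H2AC25, H2BC26 and H4C16, whose symbols follow those of the cluster genes. Of these, 12 had a promoter peak in all 4 lists, and of the 12 with a rank in all 4 lists, 6 ranked lower in both CDDD11-8 lists and 0 higher. In the 3 kb past the end, 4 of the 15 had lower coverage and 0 higher, against 1 and 3 of the 59 cluster genes. All protein-coding genes gave 23.8% lower in coverage, and those with a summit in all lists 22.8% lower in rank. The outside genes also ranked high with vehicle, with medians of 83.2 and 98.2. Among genes with a mean vehicle rank of at least 95, 64.2% ranked lower. H2AZ1 and H4C16 were above that limit. Others were under it, with mean vehicle ranks of 53.1 at MACROH2A1, 80.8 at H3-3A and 82.3 at H2AZ2. That share is thus not a matched background, and nothing particular to the outside genes can be read from rank. H3-3A, which encodes the replacement histone H3.3, had 100% in both vehicle lists and 29.8% and 13.5% with CDDD11-8. H2AZ2, which encodes a variant H2A, had 38.7% and 47.9% with vehicle and 0% in both CDDD11-8 lists. H4C16, which makes the same H4 as the cluster genes, stayed at 100% in all 4 lists, with ranks of 99.8 and 99.7 beside 97.3 and 98.7. The difference between the lists of genes was not tested.

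The 22 genes for factors of histone transcription and mRNA processing were read in the same way. Promoters of 20 of the 22 were under a peak in all 4 lists. Of the 20 with a rank in all lists, 6 ranked higher in both CDDD11-8 lists and 4 lower, while 11 of 22 had lower coverage of the 3 kb past the end and 0 higher. The background shares were 23.3% and 22.8% for rank, and 40.6% and 3.4% for lower and higher coverage among genes with a peak in all lists, so that nothing particular to these factors was shown. NPAT had ranks of 17.4 and 17.2 with vehicle and 77.9 and 43.9 with CDDD11-8, and coverage past its end of 14% and 18.8% beside 0% in both. SLBP, the stem-loop binding protein, had ranks of 75.8 and 84.8 beside 99.1 and 73.4, which overlap, and coverage past its end of 100% and 93.9% beside 44.5% and 0%. CPSF2, a subunit of the complex that cuts histone pre-mRNA, ranked 82.8 and 72.0 beside 60.8 and 17. The catalytic subunit CPSF3 ranked 26.5 and 24.5 beside 89.3 and 47.2. CDK9 itself had overlapping ranks, 40.9 and 83.7 with vehicle and 74.1 and 85.9 with CDDD11-8.

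**Figure D4:**
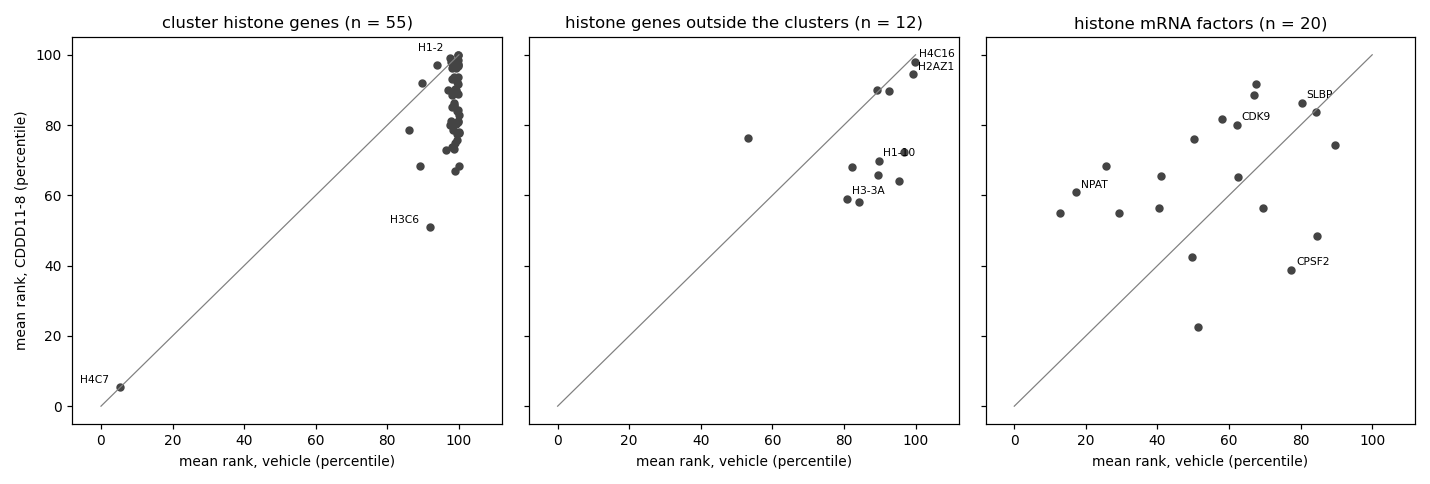
Mean rank of the strongest summit (percentile) with vehicle (horizontal axis) and with CDDD11-8 (vertical axis), 1 point per gene with a rank in all 4 lists, for cluster histone genes, histone genes outside the clusters and histone mRNA factors. The grey line marks equal ranks, and most cluster genes sit at the right edge, at or below the line, with H4C7 at the left edge at means of 5.19 and 5.38, while NPAT lies above it at means of 17.3 and 60.9.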

How the data were processed

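RNAPII occupancy was measured by ChIP-seq in MDA-MB-453. Bowtie 2 (GRCh37) and MACS2, with 1 call per library against its input, were the tools of the authors. Input libraries, 4 in number, were not used here. The deposited pileup is a signal, the deposited fold enrichment is a ratio to local background, and the deposited q-value of each summit is on the −log10 scale. The depth and scaling of a library can change the number and width of its peaks, which was not tested here.

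Summits of 1 region were joined into a peak, using canonical transcripts of GENCODE release 44 mapped to GRCh37. The GRCh37 sequence in use has the chromosome names and lengths that the lists need, with 0 peaks past a chromosome end. Histone genes that this annotation does not list were not analysed here, and 1 gene of the luminal marker list is not reported here, for a reason unrelated to its values. The genes, gene lists and comparisons were chosen with earlier results of these data known. Genes described in full were the 2 of each family with the highest mean rank, those with a peak in no or only some lists, the 3 largest rises and falls in coverage past the end among genes whose groups did not overlap, and the 3 peaks with the most genes. Groups of 1 value per library were compared by exact two-sided permutation tests. Coverage, strongest summits and peak calls were tested on simulated data. Python 3 with numpy, pandas and pysam was used. Alternatives were a q-value limit, equal numbers of peaks, a larger overlap, merged peaks, the longest isoform, leaving out copied genes or 1 library, and pairing by replicate number.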

Additional observations from a re-analysis of the deposited data

How the results depend on the processing

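With −log10 q of at least 5, with equal numbers of peaks, with overlap of 50% of the gene, with peaks within 1 kb merged, with the longest isoform, without copied genes, and with 2 choices made after seeing the data (adding HIST1H4B and HIST2H2AA3, or leaving out genes that lack a peak in a list), the median rank was lower with CDDD11-8 and coverage of 1 and 3 kb past the end was higher. With merged peaks, though, the groups overlapped, and the difference was 0.215 points at 1 kb (1.49 as reported, exact p = 1.0) and 0.738 at 3 kb (0.98 as reported, exact p = 0.667). No p could reach 0.05 under any of them. Some small differences (CDDD11-8 minus vehicle) turned, and the cause was not tested. The number of genes with a peak, -0.5 in the values reported, became 0.5 with a −log10 q of at least 5 and with equal numbers of peaks, and 0.0 with an overlap of 50% of the gene and without genes lacking a peak. Coverage of the gene, -0.197 points, became 0.847 points with the q limit and with equal numbers of peaks, 0.62 with the longest isoform and 0.0 without genes lacking a peak. Coverage of 5 kb past the end, 0.574 points, became -0.022 with merged peaks, 2.27 with equal numbers of peaks, where the groups did not overlap (exact p = 0.333), and 1.21 with the longest isoform. Peak width, 850.5 bp, became 3633.5 bp with merged peaks and 4322 bp with the longest isoform (exact p = 0.333 for both). The summit position, -2.5 bp, became 0.5 bp without copied genes.

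Leaving out 1 library at a time moved the difference in median rank between -14.9 and -3.17, the smaller difference being without the first CDDD11-8 library. The difference ran from 1.21 to 1.77 points for 1 kb past the end, from 0.512 to 1.45 for 3 kb, from -0.656 to 1.80 for 5 kb, from -0.393 to 0.0 for the gene, from -1.0 to 0.0 for genes with a peak and from -1.0 to 1.0 for genes sharing a peak. It ran from -9.5 to 4.5 bp for summit position and from -838.5 to 2539.5 bp for peak width, which was lower with CDDD11-8 only without the first CDDD11-8 library.

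Replicates were experiments on consecutive passages, and the sources used here do not say whether libraries of the same number shared a passage. With a replicate block the mean differences cannot change (-9.04 for rank), the smallest p is 0.5, and the genes with lower coverage of 3 kb past the end became 2. Over 55 genes, same-numbered libraries deviated with a correlation of -0.021 in log2 fold and -0.226 in rank. The depth of each library is unknown, and coverage at its ceiling of 100% hides any rise.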

Other observations

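Peaks covered the histone clusters to a similar extent in all 4 lists, while the CDDD11-8 lists as a whole were shorter. The 59 genes with 5 kb on either side formed 16 stretches of 347 kb in all. Peaks covered 84.4% and 81.2% of them with vehicle and 86.8% and 84.3% with CDDD11-8 (means 82.8 ± 2.23% and 85.5 ± 1.78%, SD, n = 2, exact two-sided permutation p = 0.667). They held 360 and 309 summits with vehicle and 323 and 322 with CDDD11-8. As a share of all summits in the list, this was 0.201% and 0.228% with vehicle and 0.399% and 0.498% with CDDD11-8 (exact two-sided permutation p = 0.333, the smallest possible). The number of summits in the clusters with CDDD11-8 lay between the 2 vehicle values, whereas the shares did not overlap.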
